A study of Homo sapiens with 24 samples.

Results

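Hexosamine pathway genes are the 6 genes whose products make UDP-GlcNAc, the sugar donor for glycosylation, or add O-GlcNAc to proteins and take it off again. They were chosen by gene name, as GFPT1, GNPNAT1, PGM3, UAP1, OGT and MGEA5, and all 6 were found among the 18915 genes of the count table. The study measured gene expression in HepG2 cells, a human liver cancer line, to ask how the proteasome inhibitor bortezomib acts in combination with compounds that act on the eIF2a-ATF4 stress pathway. Nelfinavir is an HIV protease inhibitor that induces this pathway, and ISRIB is a small molecule that blunts the effect of phosphorylated eIF2a on translation. The 6 groups were vehicle (DMSO), ISRIB at 50 nM, nelfinavir at 20 µM, bortezomib at 50 nM, bortezomib at 50 nM with nelfinavir at 20 µM, and bortezomib at 50 nM with ISRIB at 50 nM. Treatment lasted 10 h in every group, and each group had 4 libraries, 24 in all. The methods of the study call the 4 libraries of a group biological replicates. The sources used here do not say that they came from separate cultures, so the p-values given here measure the spread between these samples.

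The pathway starts from fructose 6-phosphate and glutamine, which GFPT1 joins into glucosamine 6-phosphate in the rate-limiting step. GNPNAT1 then acetylates the sugar, PGM3 moves its phosphate, and UAP1 couples it to UTP to give UDP-GlcNAc, which the endoplasmic reticulum and Golgi use for glycans and OGT uses to modify nuclear and cytoplasmic proteins. In cells under endoplasmic reticulum stress the spliced form of the transcription factor XBP1 is known to activate GFPT1, and the pathway is a known link between protein folding, nutrient supply and glycosylation in secretory cells such as those of the liver.

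The libraries were 3′ tag libraries, in which counts come from transcript ends and do not scale with transcript length, so no gene is called more expressed than another from its counts. Total counts per library ran from 5154533 to 6943164. Levels are given as CPM, counts scaled to a common library size, after correction with TMM factors, and errors are SD over the 4 libraries of a group. All 8 hepatocyte markers checked for the HepG2 label (ALB, AFP, APOA1, APOB, TTR, SERPINA1, HNF4A and FGB) had counts, ALB the most over the 24 libraries. Their summed level lay between 11930 and 13290 CPM in DMSO and between 8909 and 9405 CPM in bortezomib. It lay between 5833 and 7351 CPM in the nelfinavir combination and between 8351 and 9731 CPM in the ISRIB combination. Of 7 markers of fibroblasts, endothelial cells and leukocytes, 4 (COL1A2, PECAM1, VWF and PTPRC) had no row in the count table and so no value. COL1A1 had 11 counts in all. ACTA2 had the most counts of the 3 with a row, whose summed level ran from 30.0 to 43.6 CPM in DMSO and from 76.6 to 109 CPM in bortezomib. It ran from 60.2 to 65.4 CPM in the nelfinavir combination and from 51.4 to 55.8 CPM in the ISRIB combination, below bortezomib in both. In bulk RNA, fewer cells of a type and less RNA per cell cannot be told apart.

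Library properties moved with bortezomib as well. The DMSO libraries gave 21.5% ± 1.32 of their counts to mitochondrially encoded genes, the ISRIB libraries 21.9% ± 1.60 and the nelfinavir libraries 20.5% ± 1.66 (SD, n = 4). With bortezomib alone the share was 33.8% ± 1.20, with nelfinavir added 27.2% ± 2.26 and with ISRIB added 36.1% ± 3.13 (SD, n = 4). Genes with counts numbered from 12906 to 13291 in the 3 bortezomib groups and from 14311 to 14526 in the others. TMM factors were 0.786 to 0.869 in the bortezomib groups and 1.16 to 1.24 elsewhere. The part of these shifts and of the marker shifts in the results for the hexosamine genes was not tested.

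All 6 genes passed the filter on low counts that left 12685 genes for testing. A gene was called where its p-value from edgeR's quasi-likelihood test, after Benjamini-Hochberg adjustment over those 12685 genes, was under 0.05, and every adjusted p given here comes from that test unless another is named. Bortezomib against DMSO asked what proteasome inhibition does alone, and it moved every hexosamine gene. GFPT1, PGM3, OGT and MGEA5, 4 of the 6, were called higher, against 27.6% of all genes tested. GNPNAT1 and UAP1, 2 of the 6, were called lower, against 25.8% of all genes. With calls this common in both directions, the number of hexosamine genes called says little, and the direction and size for each gene carry the comparison. Scaled by library totals alone, the median gene moved by -0.50 (log2) in this comparison and the share of calls that were higher went from 51.6% to 19.2%, so the bortezomib values hold relative to the typical gene. On that scale PGM3 was no longer called (log2 fold change 0.21, adjusted p = 0.107, where its alternatives ran from 2.28e-09 to that value). GFPT1, GNPNAT1, UAP1, OGT and MGEA5 kept their direction and their call, at 0.58, -1.15, -1.31, 0.55 and 1.39 (log2) in that order.

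Nelfinavir alone against DMSO called 4 of the 6 genes higher (GFPT1, PGM3, OGT and MGEA5), against 10.4% of all genes. None was called lower, against 8.84% of all genes. ISRIB alone called 0 of the 6 genes higher and 0 lower, against 0% and 0% of all genes. In that comparison edgeR gave 703 genes, and 0 hexosamine genes, an unadjusted p under 0.05, and DESeq2 called 19 genes of all those tested.

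The combinations asked what each compound does when given together with bortezomib, against bortezomib alone. Adding nelfinavir to bortezomib called 4 of the 6 genes higher than bortezomib alone (GFPT1, PGM3, UAP1 and MGEA5), against 15.6% of all genes, and none lower, against 13.4%. The MGEA5 call there was lost in 6 of 15 alternatives. Adding ISRIB to bortezomib called 3 of the 6 higher (GFPT1, PGM3 and UAP1), against 6.91% of all genes, and none lower, against 5.34%. Set against each other directly, the nelfinavir combination was higher than the ISRIB combination for 4 of the 6 genes (GFPT1, PGM3, UAP1 and MGEA5), against 13.2% of all genes, and lower for none, against 11.3%. These comparisons share libraries, the bortezomib group serving as reference in both of the first pair, so their values are set side by side and not as independent results.

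The interaction tests ask whether adding a compound changes a gene differently with bortezomib than without it. For nelfinavir, GFPT1, PGM3 and UAP1 had a higher change with bortezomib, 3 of the 6 against 9.74% of all genes. OGT had a lower one, 1 of the 6 against 10% of all genes. For ISRIB, GFPT1 and PGM3 had a higher change with bortezomib, 2 of the 6 against 2.93% of all genes, and none had a lower one, against 1.89%. Of these 2 calls, that of GFPT1 was lost in 15 of 23 alternatives and that of PGM3 in none.

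**Figure D1:**
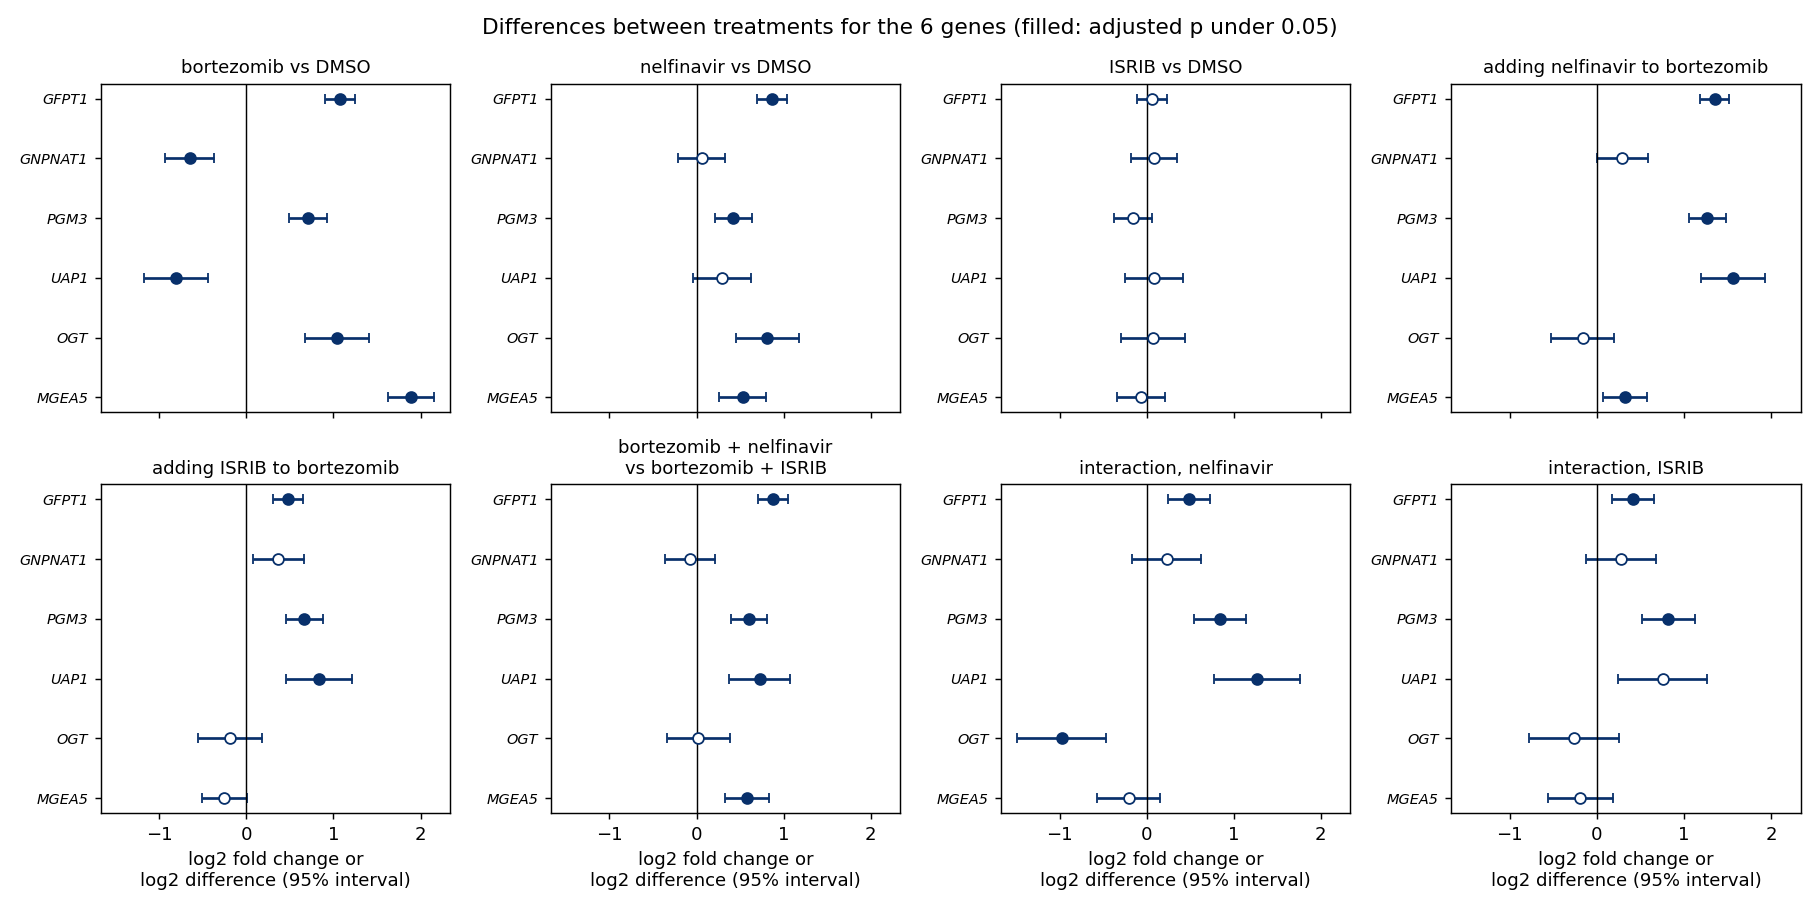
Each panel is a comparison, with the log2 fold change (for interactions, the difference of log2 changes) of each of the 6 genes on the x axis, 95% intervals as bars and filled points where the adjusted p is under 0.05. GFPT1, PGM3 and UAP1 lie to the right of 0 in both panels of a compound added to bortezomib, while all 6 intervals for ISRIB alone cross 0.

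Because the 4 genes of UDP-GlcNAc synthesis include those that moved together in the combinations, their promoters were searched for short motifs known from stress-responsive factors. The windows are RefSeq promoters on GRCh38.p14, each 250 bases before to 50 bases after a transcript start. Position 1 is the first base after those 250, and there is no position 0. All 6 genes matched the table by symbol, MGEA5 under its current name OGA, and held 9 windows of 35116. On either strand, ACGTG, the core of the element bound by spliced XBP1, was in a window of all 4 synthesis genes and in none of OGT or MGEA5, and 24.9% of the 27305 genes in the table (21.4% of windows) have it. The longer form TGACGTGG was in none of the 6 and in 0.927% of all genes. CCACG, a part of the endoplasmic reticulum stress element that overlaps ACGTG by up to 4 bases when read on the other strand, was in windows of GFPT1, GNPNAT1, PGM3, UAP1 and OGT and in those of 42.1% of all genes. CCAAT was in windows of PGM3 and UAP1 and in those of 39.7% of all genes, and the composite TGATGNAA of C/EBP and ATF factors was in none of the 6 and in 4.46% of all genes. The match nearest the start of each synthesis gene is shown 5′ to 3′ on the gene's own strand, with ACGTG or its reverse complement in capitals, and the coordinates are those of the 29 bases printed. The GFPT1 match begins at position -179 (chr2:69387390-69387418, minus strand), that of GNPNAT1 at position 29 (chr14:52791563-52791591, minus strand), that of PGM3 at position -7 (chr6:83193256-83193284, minus strand) and that of UAP1 at position 3 of window 3 of its 3 (chr1:162561860-162561888, plus strand).
GFPT1: acgagccactgcCACGTcgccgccgccag
GNPNAT1: cgttggcgctgcCACGTctgggccgcggt
PGM3: gccacgcagggcCACGTctgcggttctga
UAP1: ccacgcgctcagACGTGgacacgcgtcgc
GFPT1, GNPNAT1 and PGM3 carried the reverse complement and UAP1 the motif itself. A match is a run of letters and not a site.

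GFPT1 (ENSG00000198380; GRCh37 chromosome 2, 69546912 to 69614382, minus strand), the glutamine-dependent enzyme that commits sugar to the pathway, separated the treatments more fully than any other of the 6. The stretch of its promoter from position -200 to -101 holds the ACGTG match and 3 CCACG matches, counting both strands, all in capitals, and is shown because this gene is the known XBP1 target (RefSeq, GRCh38.p14, chr2:69387328-69387427, minus strand).
GFPT1 promoter: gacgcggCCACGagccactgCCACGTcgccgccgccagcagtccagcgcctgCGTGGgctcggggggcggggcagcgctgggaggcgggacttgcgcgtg
Its 4 libraries had 60.5, 62.1, 63.8 and 63.0 CPM in DMSO and 63.1, 64.3, 66.4 and 66.3 CPM in ISRIB. In nelfinavir they had 129, 102, 106 and 117 CPM, and in bortezomib 131, 135, 129 and 130 CPM. They had 181, 189, 171 and 189 CPM in bortezomib with ISRIB and 329, 383, 334 and 296 CPM in bortezomib with nelfinavir. DMSO and ISRIB overlapped at the bottom, and above them nelfinavir, bortezomib, the ISRIB combination and the nelfinavir combination followed in that order with no overlap between neighbours, although the highest nelfinavir library and the lowest bortezomib library all but touched. Group means ran from 62.4 ± 1.404 CPM in DMSO to 335 ± 35.8 CPM in bortezomib with nelfinavir (SD, n = 4), on 456 to 1700 counts per library.

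Bortezomib raised GFPT1 2.10-fold over DMSO, with all 4 libraries above all 4 of DMSO (log2 fold change 1.07, SE 0.0855, adjusted p = 1.56e-12). Nelfinavir raised it 1.82-fold, again in 4 of 4 libraries (log2 fold change 0.87, SE 0.0845, adjusted p = 1.14e-09). Under ISRIB the log2 fold change was 0.06, with a 95% interval from -0.11 to 0.23 (adjusted p = 1). Nelfinavir added to bortezomib raised GFPT1 a further 2.55-fold in 4 of 4 libraries (log2 fold change 1.35, SE 0.0837, adjusted p = 5.22e-14), more than it did without bortezomib by 0.49 (log2, SE 0.118, adjusted p = 0.00309). ISRIB added to bortezomib raised it 1.39-fold in 4 of 4 libraries (log2 fold change 0.48, SE 0.0837, adjusted p = 0.000150). The corresponding interaction for ISRIB was 0.42 (log2, SE 0.120, adjusted p = 0.0370), a call near the threshold that was lost in 13 of 16 fits that left out a library (adjusted p from 0.0531 to 0.0774 in those 13, and from 0.0186 to 0.112 over all alternatives). The nelfinavir combination exceeded the ISRIB combination 1.84-fold (log2 fold change 0.88, SE 0.0824, adjusted p = 8.49e-10).

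**Figure D2:**
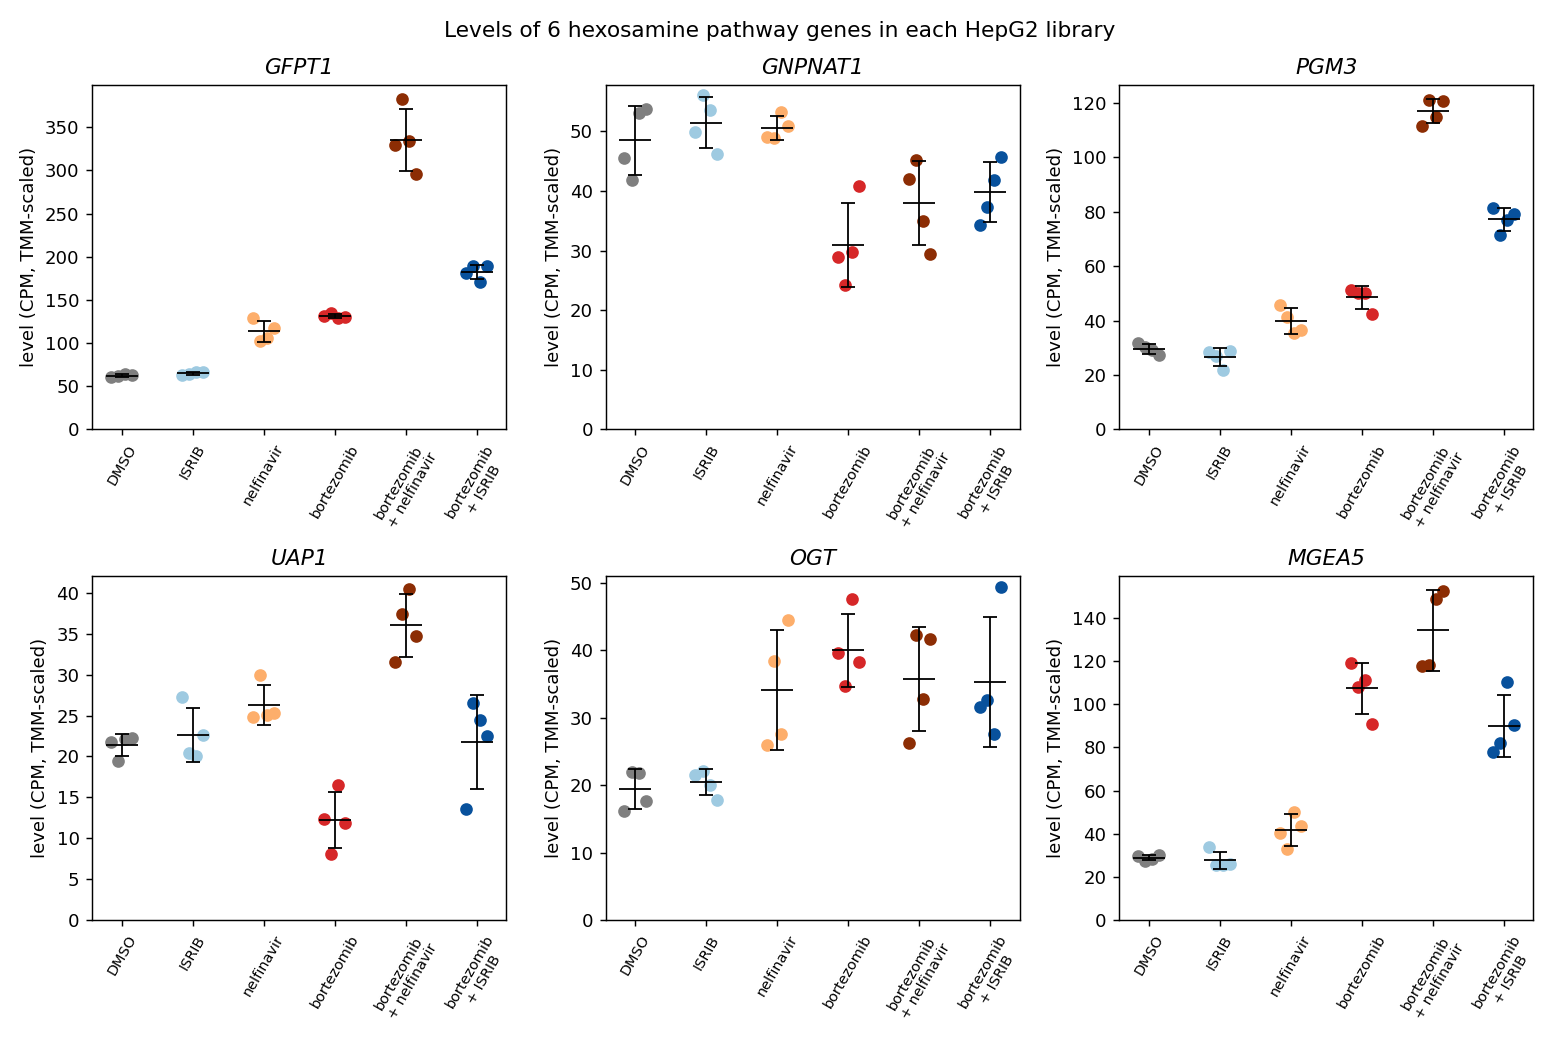
Points are the levels of each gene (CPM, TMM-scaled, y axis from 0) in the 4 libraries of each treatment on the x axis, with horizontal lines at the mean and bars of 1 SD. GFPT1 and PGM3 stand highest in bortezomib with nelfinavir, UAP1 is lowest in bortezomib, and MGEA5 is high in all 3 bortezomib groups.

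GNPNAT1 (ENSG00000100522; GRCh37 chromosome 14, 53241911 to 53258386, minus strand), which acetylates glucosamine 6-phosphate, moved in the opposite direction to GFPT1 under bortezomib. Its level was 48.5 ± 5.83 CPM in DMSO, 51.5 ± 4.32 CPM in ISRIB and 50.5 ± 2.00 CPM in nelfinavir (SD, n = 4). With bortezomib it was 30.9 ± 7.04 CPM, 37.9 ± 7.07 CPM when nelfinavir was added and 39.8 ± 5.02 CPM when ISRIB was added (SD, n = 4). From low to high, bortezomib, the nelfinavir combination, the ISRIB combination, DMSO, nelfinavir and ISRIB each overlapped the next, on 125 to 438 counts per library. The bortezomib libraries, at 28.9, 24.2, 29.8 and 40.8 CPM, nevertheless all lay under the lowest DMSO library, at 41.8 CPM.

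Bortezomib lowered GNPNAT1 to 0.637 of its DMSO level in 4 of 4 libraries (log2 fold change -0.65, SE 0.139, adjusted p = 0.000188). Nelfinavir gave a log2 fold change of 0.06 (95% interval -0.21 to 0.33, adjusted p = 0.826) and ISRIB one of 0.09 (95% interval -0.18 to 0.35, adjusted p = 1). Added to bortezomib, nelfinavir gave 0.29 (95% interval -0.00070 to 0.58, adjusted p = 0.128) and ISRIB 0.36 (95% interval 0.07 to 0.66, adjusted p = 0.0954), with 2 of 4 libraries above all bortezomib libraries in each case. Neither was called, and both depended on the bortezomib library at 40.8 CPM (replicate 4). Without it the log2 fold changes were 0.49 (adjusted p = 0.00987) with nelfinavir and 0.52 (adjusted p = 0.0145) with ISRIB, and the nelfinavir one was also called without replicate 4 of that combination (0.43, adjusted p = 0.0266). Over all alternatives the adjusted p ran from 0.00987 to 0.296 with nelfinavir and from 0.0145 to 0.280 with ISRIB. The combinations differed from each other by -0.07 (log2, 95% interval -0.36 to 0.22, adjusted p = 0.761). The interactions were 0.23 for nelfinavir (95% interval -0.16 to 0.63, adjusted p = 0.440) and 0.28 for ISRIB (95% interval -0.12 to 0.68, adjusted p = 0.491). At its 3′ end GNPNAT1 shares 456 bases with a noncoding gene on the opposite strand (ENSG00000259049), which had 0 to 6 counts per library. Which strand was counted is not given in the sources used here, and without it reads of the pair cannot be told apart.

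PGM3 (ENSG00000013375; GRCh37 chromosome 6, 83857043 to 83903655, minus strand), the mutase that turns N-acetylglucosamine 6-phosphate into the 1-phosphate, resembled GFPT1 in the order of its groups. Its libraries had 31.7, 30.2, 29.1 and 27.5 CPM in DMSO and 28.6, 27.03, 21.9 and 28.8 CPM in ISRIB. They had 45.8, 41.2, 35.3 and 36.6 CPM in nelfinavir and 51.3, 50.2, 50.3 and 42.4 CPM in bortezomib. In bortezomib with ISRIB they had 81.3, 71.4, 76.9 and 79.0 CPM, and in bortezomib with nelfinavir 112, 121, 115 and 120 CPM. ISRIB and DMSO overlapped, as did nelfinavir and bortezomib, while both combinations stood clear of bortezomib and of each other. Means were 29.6 ± 1.80 CPM in DMSO, 48.5 ± 4.16 CPM in bortezomib, 77.1 ± 4.21 CPM in the ISRIB combination and 117 ± 4.54 CPM in the nelfinavir combination (SD, n = 4), on 155 to 642 counts per library.

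Bortezomib raised PGM3 1.64-fold in 4 of 4 libraries (log2 fold change 0.71, SE 0.107, adjusted p = 1.08e-06), the value that lost its call when libraries were scaled by their totals alone. Nelfinavir raised it 1.34-fold in 4 of 4 libraries (log2 fold change 0.42, SE 0.106, adjusted p = 0.00350). ISRIB gave a log2 fold change of -0.15 (95% interval -0.37 to 0.07, adjusted p = 1). On top of bortezomib, nelfinavir raised PGM3 2.41-fold in 4 of 4 libraries (log2 fold change 1.27, SE 0.104, adjusted p = 3.49e-11) and ISRIB raised it 1.59-fold, also in 4 of 4 (log2 fold change 0.67, SE 0.105, adjusted p = 3.05e-05). The changes exceeded those without bortezomib by 0.85 for nelfinavir (log2, SE 0.148, adjusted p = 7.67e-05) and by 0.82 for ISRIB (log2, SE 0.151, adjusted p = 0.000691). PGM3 was thus called in both interactions, and both calls held in all 16 fits that left out a library. The nelfinavir combination exceeded the ISRIB combination 1.52-fold in 4 of 4 libraries (log2 fold change 0.60, SE 0.102, adjusted p = 3.55e-05). Exons of PGM3 overlap those of a gene on the opposite strand, DOPEY1 in the count table, whose counts were 28 to 37 in the DMSO libraries and 2 to 13 in the bortezomib libraries, so under bortezomib its reads, which cannot be told apart without strand, moved the other way. Its mean level went from 1.25 CPM in bortezomib to 1.59 CPM with nelfinavir added and 1.96 CPM with ISRIB added, upward as for PGM3, and its part in the PGM3 values was not tested.

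UAP1 (ENSG00000117143; GRCh37 chromosome 1, 162531512 to 162571030, plus strand), the pyrophosphorylase that makes UDP-GlcNAc in the last step, was lower in bortezomib than in DMSO. It was higher in either combination than in bortezomib alone. Its libraries had 21.7, 19.4, 22.1 and 22.3 CPM in DMSO and 27.2, 20.5, 20.1 and 22.7 CPM in ISRIB. They had 24.8, 29.9, 25.05 and 25.3 CPM in nelfinavir and 12.4, 8.15, 16.5 and 11.9 CPM in bortezomib. In bortezomib with ISRIB they had 13.6, 26.6, 24.4 and 22.5 CPM, and in bortezomib with nelfinavir 31.5, 37.5, 40.5 and 34.7 CPM. Every bortezomib library was under every DMSO library and every library of the nelfinavir combination was above all other groups, while DMSO, bortezomib with ISRIB, ISRIB and nelfinavir each overlapped the next. In the ISRIB combination replicate 1 stayed within the range of bortezomib and the other 3 libraries were above that of DMSO. With 42 to 232 counts per library, UAP1 had the fewest counts in bortezomib, where the mean was 12.2 ± 3.41 CPM against 21.4 ± 1.35 CPM in DMSO and 36.0 ± 3.83 CPM in bortezomib with nelfinavir (SD, n = 4).

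Bortezomib lowered UAP1 to 0.570 of its DMSO level in 4 of 4 libraries (log2 fold change -0.81, SE 0.181, adjusted p = 0.000301). All 4 nelfinavir libraries lay above all DMSO libraries, but the log2 fold change of 0.30 was not called (95% interval -0.04 to 0.63, adjusted p = 0.229). A fit of only the DMSO and nelfinavir libraries did call it (adjusted p = 0.0408, where the alternatives ran from that value to 0.447). For ISRIB alone the log2 fold change was 0.08 (95% interval -0.25 to 0.42, adjusted p = 1). Nelfinavir added to bortezomib raised UAP1 2.95-fold in 4 of 4 libraries, the largest change of the 6 genes in that comparison (log2 fold change 1.56, SE 0.180, adjusted p = 4.73e-08). ISRIB added to bortezomib raised it 1.79-fold, with 3 of 4 libraries above all bortezomib libraries (log2 fold change 0.84, SE 0.187, adjusted p = 0.00227). The interaction was 1.27 for nelfinavir (log2, SE 0.243, adjusted p = 0.000265). For ISRIB it was 0.76 and not called (95% interval 0.25 to 1.26, adjusted p = 0.0731), although it was called without replicate 1 of the ISRIB combination (0.93, adjusted p = 0.0161), without replicate 3 of bortezomib (0.93, adjusted p = 0.0294) and by DESeq2 (adjusted p = 0.0456). Over all alternatives its adjusted p ran from 0.0161 to 0.170. The nelfinavir combination exceeded the ISRIB combination 1.65-fold in 4 of 4 libraries (log2 fold change 0.73, SE 0.171, adjusted p = 0.00187).

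OGT (ENSG00000147162; GRCh37 chromosome X, 70752937 to 70795742, plus strand) encodes the transferase that places O-GlcNAc on proteins. Its libraries had 16.2, 21.999, 21.8 and 17.6 CPM in DMSO and 21.6, 22.2, 20.1 and 17.9 CPM in ISRIB. They had 25.9, 38.5, 27.6 and 44.4 CPM in nelfinavir and 39.6, 34.7, 47.5 and 38.3 CPM in bortezomib. In bortezomib with nelfinavir they had 26.2, 42.2, 32.8 and 41.7 CPM, and in bortezomib with ISRIB 31.6, 32.7, 27.6 and 49.4 CPM. The 4 groups with nelfinavir or bortezomib overlapped one another and lay above DMSO and ISRIB without overlap. Means were 19.4 ± 2.96 CPM in DMSO, 34.1 ± 8.83 CPM in nelfinavir, 40.0 ± 5.41 CPM in bortezomib and 35.7 ± 7.68 CPM in bortezomib with nelfinavir (SD, n = 4), on 124 to 342 counts per library.

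Bortezomib raised OGT 2.06-fold in 4 of 4 libraries (log2 fold change 1.05, SE 0.180, adjusted p = 9.82e-06), and nelfinavir raised it 1.76-fold in 4 of 4 (log2 fold change 0.81, SE 0.177, adjusted p = 0.000884). ISRIB alone gave a log2 fold change of 0.08 (95% interval -0.29 to 0.45, adjusted p = 1). On top of bortezomib, nelfinavir gave -0.16 (95% interval -0.53 to 0.20, adjusted p = 0.529) and ISRIB -0.18 (95% interval -0.55 to 0.18, adjusted p = 0.556). Fits leaving out a library gave values from -0.21 to 0.0058 for nelfinavir and from -0.39 to -0.09 for ISRIB, with no call. OGT was therefore the member whose response to nelfinavir was smaller in the presence of bortezomib, with an interaction of -0.98 (log2, SE 0.251, adjusted p = 0.00518) that was called in all 16 fits leaving out a library. Its interaction for ISRIB was -0.26 (95% interval -0.78 to 0.26, adjusted p = 0.654). The combinations differed by 0.02 (log2, 95% interval -0.34 to 0.39, adjusted p = 0.949).

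MGEA5 (ENSG00000198408; GRCh37 chromosome 10, 103544200 to 103578222, minus strand), now named OGA, encodes the hydrolase that takes O-GlcNAc off again. It had the largest rise of the 6 under bortezomib. Its libraries had 29.5, 27.3, 28.6 and 30.3 CPM in DMSO and 33.7, 25.3, 25.4 and 26.1 CPM in ISRIB. They had 40.5, 32.8, 50.2 and 43.8 CPM in nelfinavir and 119, 108, 111 and 91.0 CPM in bortezomib. In bortezomib with nelfinavir they had 118, 118, 149 and 152 CPM, and in bortezomib with ISRIB 77.7, 81.9, 110 and 90.3 CPM. Each of the 3 bortezomib groups was above every library without bortezomib, and nelfinavir lay between DMSO and those groups, overlapping only with replicate 1 of ISRIB. Among the 3, the ISRIB combination, bortezomib and the nelfinavir combination each overlapped the next, with means of 90.01 ± 14.4, 107 ± 11.8 and 134 ± 18.8 CPM (SD, n = 4) against 28.9 ± 1.27 CPM in DMSO. MGEA5 had 180 to 811 counts per library.

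Bortezomib raised MGEA5 3.71-fold in 4 of 4 libraries (log2 fold change 1.89, SE 0.131, adjusted p = 5.42e-14). Nelfinavir raised it 1.44-fold in 4 of 4 (log2 fold change 0.53, SE 0.131, adjusted p = 0.00323). ISRIB alone gave a log2 fold change of -0.06 (95% interval -0.34 to 0.21, adjusted p = 1). Nelfinavir added to bortezomib raised it 1.25-fold, with 2 of 4 libraries above all bortezomib libraries (log2 fold change 0.32, SE 0.123, adjusted p = 0.0470). This call near the threshold was lost without replicate 3 or 4 of the nelfinavir combination (adjusted p = 0.104 and 0.105), without replicate 4 of bortezomib (adjusted p = 0.103), and when scaled by totals alone (adjusted p = 0.0939). Over all alternatives its adjusted p ran from 0.0106 to 0.105. ISRIB added to bortezomib gave -0.25 (95% interval -0.51 to 0.0017, adjusted p = 0.194), with 3 of 4 libraries under all bortezomib libraries. Between the combinations, the one with nelfinavir was 1.49-fold higher in 4 of 4 libraries (log2 fold change 0.58, SE 0.125, adjusted p = 0.000782). Neither interaction was called, at -0.21 for nelfinavir (95% interval -0.57 to 0.16, adjusted p = 0.456) and -0.19 for ISRIB (95% interval -0.56 to 0.19, adjusted p = 0.653).

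For GFPT1, UAP1, OGT and MGEA5, the last 500 bases of their transcripts matched no other gene over 100 bases or more at 90% identity. For GNPNAT1 such matches reached 4 other genes, the noncoding neighbour among them, and for PGM3 they included the opposite-strand neighbour, so part of the reads of those 2 genes could have been assigned elsewhere.

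**Figure D3:**
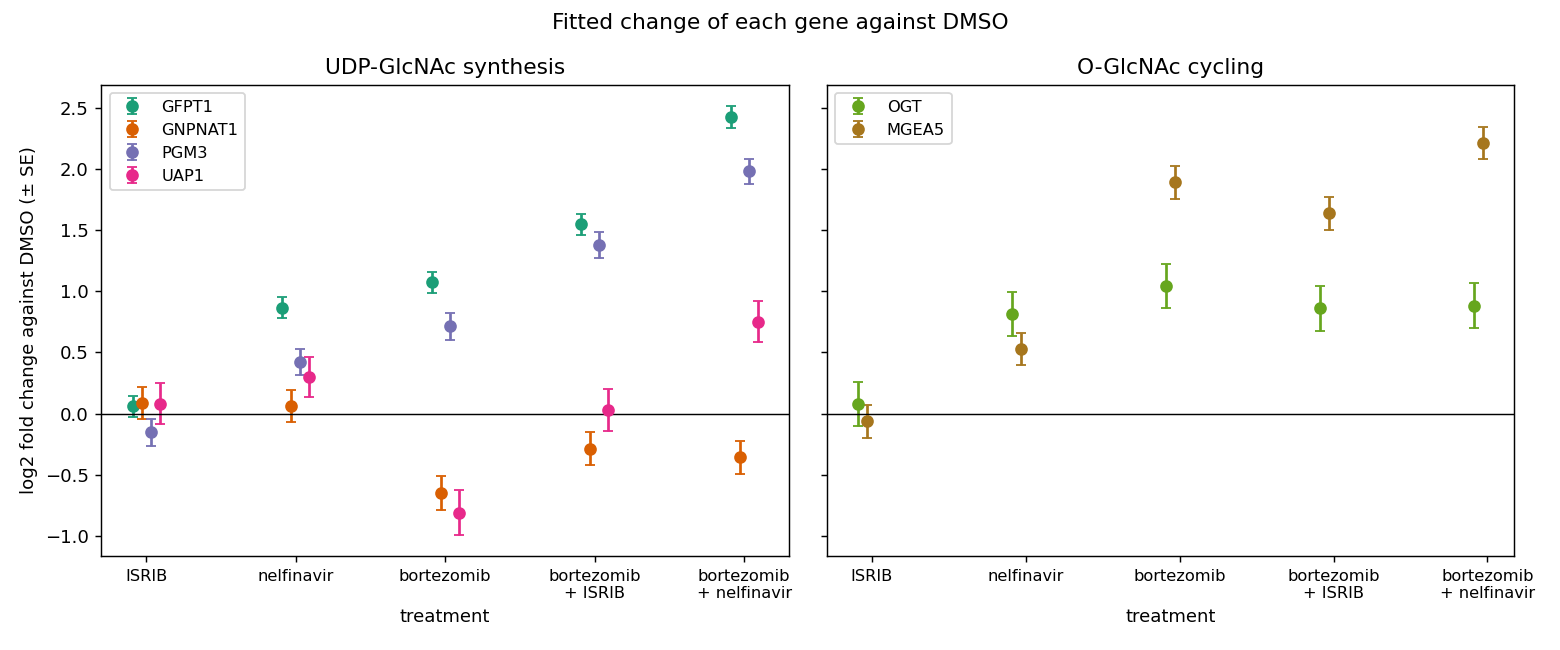
Fitted log2 fold change against DMSO (y axis, bars of 1 SE) for each treatment on the x axis, with the 4 synthesis genes on the left and the O-GlcNAc cycling genes on the right. GFPT1 and PGM3 climb to 2.43 and 1.98 in bortezomib with nelfinavir, UAP1 passes from -0.81 in bortezomib to 0.75, and GNPNAT1 stays below 0 in all 3 bortezomib groups.

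The 4 enzymes of UDP-GlcNAc synthesis therefore did not move as a block. Against DMSO, the fitted log2 fold changes in bortezomib with nelfinavir were 2.43 for GFPT1, -0.36 for GNPNAT1, 1.98 for PGM3 and 0.75 for UAP1. In bortezomib with ISRIB they were 1.55, -0.29, 1.38 and 0.03 in the same order. The cycling genes stood at 0.88 for OGT and 2.21 for MGEA5 in bortezomib with nelfinavir, and at 0.86 and 1.64 in bortezomib with ISRIB. These values of the combinations against DMSO are descriptions, with no test.

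Ratios of counts within a library need no scaling, so they show how the genes moved relative to each other whatever the library factors. Their size depends on how well each 3′ end was captured, and only their shifts between groups are described. The ratio of GFPT1 to GNPNAT1 counts was 1.30 ± 0.143 in DMSO, 1.27 ± 0.121 in ISRIB and 2.25 ± 0.280 in nelfinavir (SD, n = 4). With bortezomib it was 4.41 ± 0.981, with ISRIB added 4.64 ± 0.619 and with nelfinavir added 8.97 ± 1.01 (SD, n = 4). Thus the first enzyme gained on the second under nelfinavir and under bortezomib, and most in their combination, whose lowest library (7.82) was above the highest of any other group (5.57 in bortezomib). GFPT1 and PGM3 kept closer together, their ratio lying between 2.11 ± 0.168 in DMSO and 2.88 ± 0.305 in nelfinavir (SD, n = 4).

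The ratio of MGEA5 to OGT, the hydrolase to the transferase, was 1.52 ± 0.291 in DMSO, 1.36 ± 0.189 in ISRIB and 1.30 ± 0.460 in nelfinavir (SD, n = 4). With bortezomib it was 2.71 ± 0.406, with ISRIB added 2.70 ± 0.917 and with nelfinavir added 3.87 ± 0.820 (SD, n = 4). All bortezomib libraries, at 2.34 or more, lay above all DMSO libraries, the highest of which was at 1.827. The ISRIB combination was the most spread, from 1.830 to 3.99. Both O-GlcNAc genes were higher under bortezomib, and the hydrolase gained more.

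Other genes around the pathway were read from lists and are described by their counts and medians, with no test of a list. They are read against the shares of all genes called that are given above for each comparison, and against medians over all genes that lay between -0.02 and 0.01 with TMM scaling. Of 7 genes that supply glucose and glutamine, 6 were tested, since HK1 had 3 counts in all. Bortezomib raised 2 of the 6, the glutamine transporter SLC1A5 (log2 fold change 1.24, SE 0.108, adjusted p = 1.28e-11) and the glucose transporter SLC2A1 (0.43, SE 0.106, adjusted p = 0.000918), the latter at -0.07 with library totals alone. It lowered 3, among them GPI, which makes the fructose 6-phosphate that GFPT1 uses (-0.69, SE 0.0895, adjusted p = 6.45e-08), with HK2 at -0.45 and GLUL at -0.30. Nelfinavir added to bortezomib raised HK2, a hexokinase (1.10, SE 0.170, adjusted p = 7.56e-06), and GPI (0.39, SE 0.0906, adjusted p = 0.00131) and lowered SLC2A1 (-0.57, SE 0.107, adjusted p = 0.000121), while ISRIB added to bortezomib lowered SLC2A1 (-0.51, SE 0.107, adjusted p = 0.00126), the 1 call there with TMM scaling, where RLE factors or library totals alone gave 2 lower. Bortezomib raised 1 and lowered 4 of the list when libraries were scaled by totals alone. The list median in those comparisons was -0.05, 0.17 and -0.22, against 0.00, -0.02 and 0.01 over all genes tested. With nelfinavir alone SLC1A5 (1.51) and GLUL (0.31) rose and SLC2A1 fell (-0.36), and in the interaction of nelfinavir HK2 (1.21) and GPI (0.48) were called higher and SLC1A5 lower (-1.37). HK2 (1.53), SLC1A5 (0.45) and GPI (0.36) were higher in the nelfinavir combination than in the ISRIB combination.

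Of 7 paralogs and genes of salvage or reverse steps, 5 were tested. GFPT2, the paralog of GFPT1, had 19 counts over all 24 libraries and was not tested, and RENBP had 27. AMDHD2, which removes the acetyl group and so works against the pathway, fell under bortezomib (log2 fold change -0.88, SE 0.223, adjusted p = 0.00121), and was at 0.20 with nelfinavir added (adjusted p = 0.554) and 0.54 with ISRIB added (adjusted p = 0.136). The salvage kinase NAGK was called in none of the 8 comparisons, with log2 values from -0.43 in the interaction of nelfinavir to 0.26 under nelfinavir alone. UAP1L1, the paralog of UAP1, rose under nelfinavir alone (0.58, SE 0.151, adjusted p = 0.00554), and GNPDA1, a deaminase that can reverse the GFPT1 step, rose when nelfinavir was added to bortezomib (0.40, SE 0.104, adjusted p = 0.00416). With TMM scaling those were the only 3 calls in this list over the 8 comparisons, and its median was -0.21 for bortezomib, 0.26 for nelfinavir, 0.20 for nelfinavir added to bortezomib and 0.16 for ISRIB added to it. With library totals alone, 4 of the 5 were called lower under bortezomib and the median was -0.71, where 6266 of the 12685 genes were called lower and the median of all genes was -0.50.

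Of 14 genes that use UDP-GlcNAc or make sialic acid from it, all were tested. Under bortezomib 7 fell, against 25.8% of all genes, and 1 rose, against 27.6%. The gene that rose was PIGA of glycolipid anchor synthesis (log2 fold change 0.95, SE 0.350, adjusted p = 0.0221). The 7 that fell included EOGT (-0.85), the branching transferase MGAT5 (-0.83), MGAT2 (-0.81) and NANP (-0.79), and the list median was -0.42. RLE factors gave 8 lower and 1 higher, and library totals alone 10 lower and none higher, PIGA losing its call. On the latter scale the median was -0.92, again where 6266 of the 12685 genes were called lower and the median of all genes was -0.50. Added to bortezomib, nelfinavir raised NANS, a sialic acid synthase (1.16, SE 0.0968, adjusted p = 4.60e-11), and MGAT1, which starts complex N-glycans (1.01, SE 0.105, adjusted p = 6.41e-09). It lowered CMAS (-0.98) and MGAT4B (-0.48). ISRIB added to bortezomib raised NANS (0.72, SE 0.0978, adjusted p = 3.28e-06), MGAT1 (0.78, SE 0.106, adjusted p = 3.03e-06) and MGAT5 (0.46, SE 0.132, adjusted p = 0.0183), 3 higher and 0 lower, which became 2 higher and 1 lower with library totals alone. NANS and MGAT1 were also the 2 genes of the list that rose under nelfinavir alone (0.45 and 0.34), and both were called higher in the interactions of nelfinavir (0.72 and 0.67) and of ISRIB (0.64 and 0.72). The interaction of nelfinavir also called MGAT5 higher (0.50, adjusted p = 0.0479) and MGAT4B lower (-0.64, adjusted p = 0.00462), and with library totals alone its 3 higher calls became 2. Between the combinations, NANS was higher (0.45) and CMAS lower (-0.84) in the one with nelfinavir.

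As a reference for GFPT1, 12 genes known to respond to spliced XBP1 were followed, XBP1 itself included. Counts per gene do not separate spliced from unspliced XBP1 mRNA, so a lower XBP1 count does not give the level of the spliced form. By RT-PCR, the study reports a larger spliced share with either compound beside bortezomib. Nelfinavir added to bortezomib raised 10 of the 12 and lowered 1, XBP1 (-0.39), with a list median of 1.13. ISRIB added to bortezomib also raised 10 and lowered XBP1 (-0.89), with a median of 0.88. With nelfinavir the largest rises were those of SEC24D (1.71), EDEM1 (1.45), DNAJB9 (1.37) and DNAJB11 (1.17), beside 1.35 for GFPT1. With ISRIB they were those of EDEM1 (1.94), DNAJB11 (1.05), DNAJC3 (1.02) and DNAJB9 (1.01), beside 0.48 for GFPT1. Under bortezomib alone 7 were called higher, led by DNAJB9 (1.81), SEC24D (0.87), DNAJC3 (0.53) and ARFGAP3 (0.36), and 2 lower, SPCS3 (-0.47) and SSR3 (-0.39). These counts became 7 and 3 with RLE factors and 1 higher and 4 lower with library totals alone, where SEC61A1, SRPRB, DNAJB11 and ARFGAP3 changed sign. Nelfinavir alone raised 6, led by SEC24D (1.24), DNAJB9 (0.94), SSR3 (0.54) and SEC61A1 (0.51), and lowered 0. The interaction of nelfinavir called 7 higher, led by EDEM1 (1.37), DNAJC3 (1.30), DNAJB11 (1.16) and SPCS3 (0.76), and XBP1 lower (-0.44). That of ISRIB called 8 higher, led by EDEM1 (2.50), DNAJC3 (1.21), DNAJB11 (1.20) and ARFGAP3 (1.04), and XBP1 lower (-0.84). On the scale of library totals alone, ISRIB added to bortezomib raised 9 and the interaction of nelfinavir called 6 higher. In the nelfinavir combination 5 were higher than in the ISRIB combination, led by SEC24D (0.77), XBP1 (0.50), SRPRB (0.41) and SEC61A1 (0.39).

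Of 10 genes known to respond to ATF4, 9 were tested, since CHAC1 had 3 counts. Bortezomib raised 8, led by ATF3 (5.39), SLC7A11 (3.74), SESN2 (3.57) and DDIT4 (3.46), with a median of 3.24. Scaling by library totals alone called 7 higher and 1 lower, with a median of 2.74. Nelfinavir alone raised 9, led by ASNS (4.001), SLC7A11 (3.12), DDIT4 (2.96) and ATF3 (2.81), with a median of 2.55. Nelfinavir added to bortezomib raised 6, led by SESN2 (1.11), DDIT3 (0.99), ASNS (0.86) and PHGDH (0.84), and lowered DDIT4 (-0.32), with a median of 0.77, whereas ISRIB added to bortezomib raised 0 and lowered 4 (SESN2 by -1.10, ATF3 by -0.95, DDIT4 by -0.94 and TRIB3 by -0.47), with a median of -0.23 (5 lower with library totals alone). In the interaction of nelfinavir all 9 were lower, led by DDIT4 (-3.28), ASNS (-3.14), SLC7A11 (-3.10) and ATF3 (-2.20), with a median of -1.56. In that of ISRIB 3 were, SESN2 (-1.21), DDIT4 (-1.05) and TRIB3 (-0.49). In the nelfinavir combination 7 were higher than in the ISRIB combination, led by SESN2 (2.20), ATF3 (1.57), TRIB3 (1.24) and DDIT3 (1.07), and 8 were with RLE factors or library totals alone. ISRIB alone called no gene of any of the 5 lists by edgeR. GFPT1, PGM3 and UAP1 thus moved upward with ISRIB added to bortezomib while 4 of the ATF4 reference genes moved downward.

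**Figure D4:**
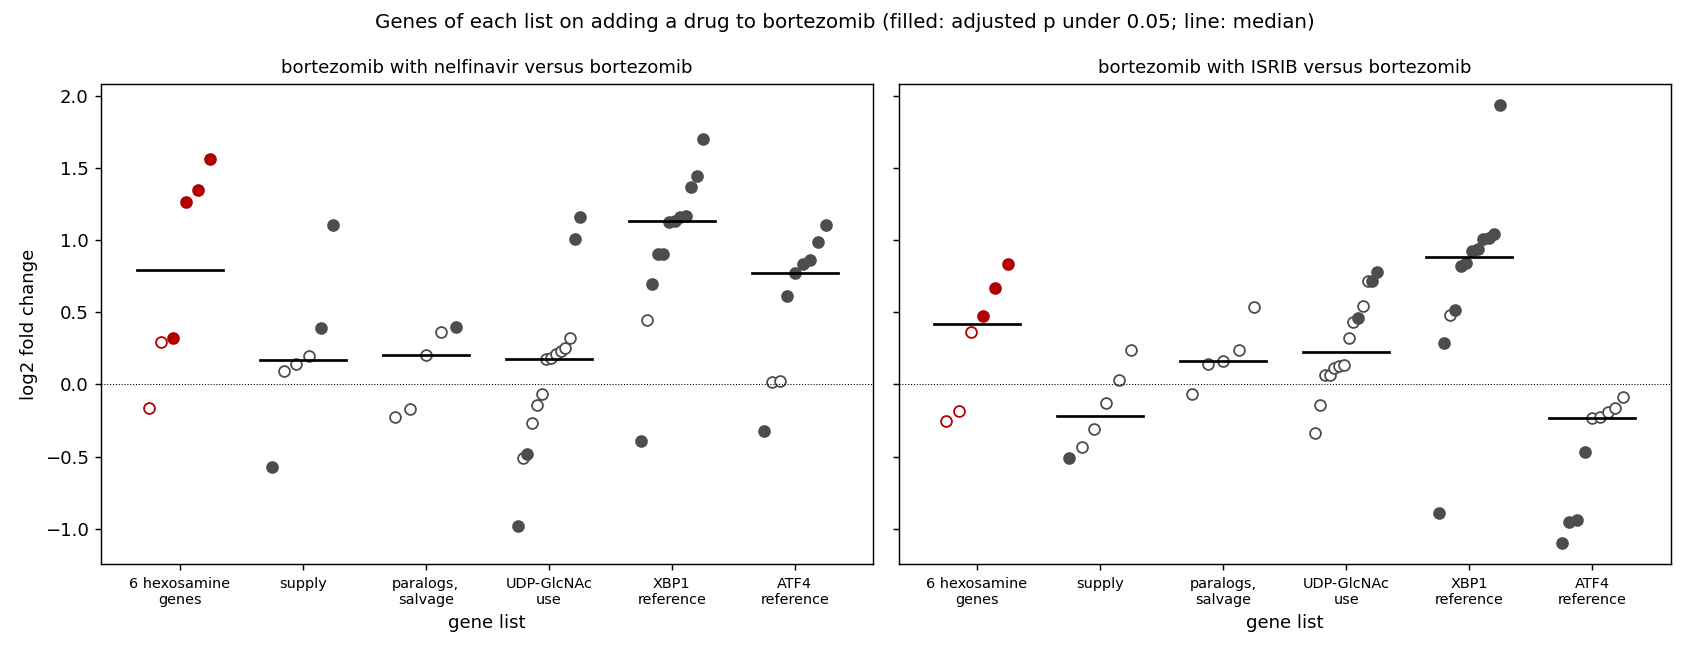
Points are log2 fold changes (y axis) of the genes of each list (x axis) when nelfinavir or ISRIB was added to bortezomib, filled where the adjusted p is under 0.05, with a line at the list median. The XBP1 reference genes lie mostly above 0 in both panels (medians 1.13 and 0.88), the ATF4 reference genes above 0 with nelfinavir and below it with ISRIB (0.77 and -0.23).

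The genes most like each hexosamine gene were sought among 7890 genes with a mean of at least 10 CPM, by the root mean square (RMS) difference in the 5 fitted log2 fold changes against DMSO. Nearest to GFPT1 were RHOF (RMS 0.156), DUSP8 (0.157) and RNF24 (0.160), where the median gene was at 1.39. For GNPNAT1 they were LAMTOR5 (0.0363), C14orf2 (0.0666) and MSI2 (0.0839), with the median gene at 0.585. PGM3 was nearest to ZNF555 (0.156), RASSF1 (0.172) and USP12 (0.187), with the median gene at 1.11. UAP1 was nearest to LZTS3 (0.0930), IER2 (0.143) and NANS (0.147), with the median gene at 0.704. NANS, which also appears in the list of genes that use UDP-GlcNAc, had log2 fold changes of -0.62 in bortezomib, 0.55 in the nelfinavir combination and 0.10 in the ISRIB combination, against -0.81, 0.75 and 0.03 for UAP1. OGT was nearest to STK40 (0.0512), GHITM (0.0632) and MKRN2 (0.0990), with the median gene at 0.811. MGEA5 was nearest to BAIAP2L1 (0.0935), ADAM17 (0.131) and PSAP (0.133), with the median gene at 1.46.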

How the data were processed

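The authors made 3′ mRNA libraries (QuantSeq FWD), trimmed reads with cutadapt 2.8 and, in the RNA-Seq workflow of nf-core, aligned them with STAR to hg19 (GRCh37). The deposited values are unnormalised read counts per gene, taken on Ensembl models of protein coding, lincRNA and antisense genes. Which program counted them, on which strand, and whether molecular identifiers were used is not given in the sources used here.

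filterByExpr removed low genes (minimum count of 5, minimum total of 25), TMM factors scaled the libraries, and genes were tested in R 4.3.3 with edgeR 4.0.16 (quasi-likelihood F test, 1 coefficient per condition, 24 libraries, 8 comparisons), with Benjamini-Hochberg adjustment over 12685 genes. DESeq2 1.42.0, RLE factors, library totals alone, no filter, a replicate block, no mitochondrial genes, fits of the compared groups alone and leaving out each library were alternatives. Code was tested on simulated data. Gene models came from GENCODE on GRCh37, promoters from RefSeq on GRCh38.p14, and near copies from BLAST 2.17.0.

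All 6 members were described. From each list, genes with adjusted p under 0.05 were named, at most 4 per direction and comparison by size of change, plus GFPT2, AMDHD2 and NAGK; 2 listed genes are not reported here. The members and lists were chosen with earlier results of these data known.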

Additional observations from a re-analysis of the deposited data

Results flagged for a closer look

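In 54 groups of 4 libraries, 3 had a library whose gap to its nearest neighbour took more of the group's range than Dixon's critical value for 4 samples allows. Chance gives that in about 1 in 20 groups. PGM3 was lowest in bortezomib replicate 4, at 42.4 CPM against 50.2 to 51.3 CPM in the other 3 libraries. UAP1 was highest in nelfinavir replicate 2, at 29.9 CPM against 24.8 to 25.3 CPM. MGEA5 was highest in ISRIB replicate 1, at 33.7 CPM against 25.3 to 26.1 CPM.

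The effect of nelfinavir differed between cells with and without bortezomib by the interaction test of edgeR for GFPT1 (0.49, adjusted p = 0.00309), PGM3 (0.85, adjusted p = 7.67e-05), UAP1 (1.27, adjusted p = 0.000265) and OGT (-0.98, adjusted p = 0.00518), on the log2 scale. The effect of ISRIB differed in the same sense for GFPT1 (0.42, adjusted p = 0.0370) and PGM3 (0.82, adjusted p = 0.000691). The GFPT1 call for ISRIB was lost in 15 of 23 alternatives and the PGM3 call in none.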

How the results depend on the processing

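For the 48 gene and comparison results, 816 values were computed under other settings. Of these 787 kept their side of the threshold, 22 were no longer called, 7 became called and 0 reversed with a call under either setting. Some values near 0 that were called under neither changed sign, such as OGT between the combinations (0.02, with alternatives from -0.04 to 0.26). With library totals alone, and with no filter on low counts, 1 gene (PGM3) in place of 2 was called in the interaction of ISRIB, GFPT1 having adjusted p = 0.0720 and 0.112, and leaving out each library gave 1 to 2. MGEA5 with nelfinavir added to bortezomib was also lost without mitochondrially encoded genes (adjusted p = 0.0531) and with the compared groups alone (adjusted p = 0.0869). Over all genes, ISRIB against DMSO called 39 with no filter, 80 with the compared groups alone and 19 by DESeq2, against 0. Fits of the compared groups alone called 3873 genes for nelfinavir (against 2441), 2246 for nelfinavir added to bortezomib (3669), 867 for ISRIB added to it (1553) and 1740 between the combinations (3098). The share of calls that were higher went from 56.4% to 40.5% for ISRIB added to bortezomib and from 60.8% to 49.4% for the ISRIB interaction with library totals alone. The cause of these changes was not tested.

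With the replicate number as a block, 6, 4, 0, 4, 3, 4, 4 and 2 members were called in the 8 comparisons, the same counts as without it. Same-numbered libraries correlated over 0.1 in 17 of 60 pairs (median 0.034), against 38 of 180 pairs with other numbers (median -0.018). Of 24 libraries, 10 were closest to their own number. The labels do not say what the numbers mark, so these values cannot decide whether libraries were paired. The main test used no pairing. Counts of 42 to 232 per library limit precision for UAP1 in particular.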
